A study of Mus musculus with 12 samples.

Results

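The 10 genes described here belong to the circadian clock and were followed through sorted heart muscle cells of Ncam-1 wild-type (WT) and Ncam-1 null (KO) mice. They were chosen by name, Arntl, Clock, Npas2, Per1, Per2, Per3, Nr1d1, Nr1d2, Dbp and Tef, and make up 10 of the 48526 gene identifiers in the count tables. The cells came from ventricles of adult male mice that all carried Cntn2-EGFP, a bacterial artificial chromosome reporter that labels the ventricular conduction system. The reporter line was kept in CD1 and Ncam-1-/- in C57BL/6, so the crossed mice had a mixed background, and the null allele is carried by every cell rather than by heart muscle alone. Dissociated cells were incubated with 50 nM TMRM, a dye held by charged mitochondria, and sorted into Purkinje cells (PCs), positive for both TMRM and EGFP, and ventricular myocytes (VMs), positive for TMRM alone. RNA was sequenced in 12 libraries, 3 each of WT PC, KO PC, WT VM and KO VM. The hour at which the mice were killed, and whether a PC and a VM library of the same number came from the same heart, are not stated in the sources used here.

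The clock is a feedback loop in which ARNTL (also called BMAL1), paired with CLOCK or NPAS2, binds E-box sequences and switches on the Per genes, Nr1d1, Nr1d2 and the output factors Dbp and Tef. PER proteins, with cryptochromes, then hold the ARNTL pair back, while NR1D1 and NR1D2 (REV-ERB alpha and beta) repress Arntl through ROR elements. The mouse heart has such a clock of its own, in which Arntl and Dbp peak at nearly opposite times of day, and it sets daily swings in metabolism and ion channel expression. A library made at 1 hour therefore holds a snapshot of that cycle.

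Sequences around the starts of the genes are given first, where elements of the kinds by which the members act on each other were searched. RefSeq windows (GRCm38.p6) of 250 bases before to 50 bases after a transcript start were matched for 9 of the 10 genes, in 14 windows, and Per2 had none. A set of 3 motifs was searched on both strands, the E-box CACGTG, the D-box TTANGTAA that DBP and TEF bind, and TAGGTCA, the core of a ROR element. No motif's letters overlap with those of another. The E-box was in 7.15% of the 32851 windows of all genes, the D-box in 2.32% and the ROR core in 2.61%. Counted by gene, the shares were 8.09%, 2.72% and 2.97% of 27025 genes, and the share with any of the 3 was not counted. Among the members 4 genes had a match, and these windows are printed around it, 5′ to 3′ on the gene's own strand with the matched bases in capitals. Positions count from the transcript start, which is 0.

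Arntl, plus strand, chr7:113207530-113207558, ROR core from 30 to 36: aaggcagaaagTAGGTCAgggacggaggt
Per1, plus strand, chr11:69098738-69098833, E-box from -166 to -161: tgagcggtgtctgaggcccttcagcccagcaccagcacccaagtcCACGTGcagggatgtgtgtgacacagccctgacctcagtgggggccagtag
Per3, minus strand, chr4:151044771-151044915, D-boxes from -205 and from -158: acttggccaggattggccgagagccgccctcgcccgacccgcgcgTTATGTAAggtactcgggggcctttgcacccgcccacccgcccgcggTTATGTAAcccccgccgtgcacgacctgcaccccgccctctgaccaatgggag
Tef, first start, plus strand, chr15:81802501-81802596, E-box from -127 to -122: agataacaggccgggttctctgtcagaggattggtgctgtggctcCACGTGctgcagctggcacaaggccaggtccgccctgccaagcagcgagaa
Tef, second start, plus strand, chr15:81811231-81811326, E-box from -138 to -133: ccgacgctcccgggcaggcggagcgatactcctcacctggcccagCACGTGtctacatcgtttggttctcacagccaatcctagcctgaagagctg

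Per1 and Tef thus had an E-box close to a start, Tef at both of its starts, and Per3 had a pair of D-boxes of the same letters. The windows of Clock, Npas2, Nr1d1, Nr1d2 and Dbp held none of these letters, which says nothing of sites farther away or of other spellings. A match is a stretch of letters and not a measured binding site.

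The libraries had between 1532393 and 6761356 counts on genes outside the mitochondrial genome, and mitochondrial genes took 79.0% to 91.3% of all counts on genes. WT PC replicate 2 stood apart, where 63.9% of read pairs did not align and 18.8% to 24.7% did not elsewhere, and 11847 genes with a count against 13571 to 18129. Ncam1 was read 83, 34 and 116 times in the WT PCs and at most once in any KO library, and 6, 0 and 9 times in the WT VMs. Cntn2, which marks PCs, had 543, 231 and 922 counts in the WT PCs, 22, 39 and 677 in the KO PCs, and 2 to 7 in every VM library. Summed markers of fibroblasts ran from 616 to 1547 normalized counts in the PCs against 62.2 to 320 in the VMs. Those of endothelium ran from 415 to 1324 against 58.0 to 447, and those of leukocytes from 236 to 591 against 9.90 to 130. Smooth muscle and pericyte markers ran from 953 to 2345 against 243 to 957. Summed Purkinje markers were 720, 1648 and 1866 in the WT PCs and 264, 192 and 1137 in the KO PCs, against 36.7 to 64.2 in the VMs. No neuron or glia marker was abundant, their sum being at most 10.4. The part of other cell types in the values that follow was not tested, and in sorted bulk RNA fewer cells of a type and less RNA per cell cannot be told apart.

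All 10 genes had reads in these cells. A normalized count is the number of read pairs on a gene scaled to a common library size. Per kilobase of exon, the mean level over the 12 libraries was highest for Nr1d2, at 92.4 ± 25.5 normalized counts per kb (SD, n = 12). Clock followed at 39.9 ± 10.2, Nr1d1 at 31.6 ± 10.8 and Tef at 18.7 ± 11.6. Per3 at 8.0 ± 5.35, Arntl at 7.70 ± 6.47, Dbp at 5.75 ± 4.57 and Per1 at 5.40 ± 3.49 came next. Npas2, at 3.36 ± 1.48, and Per2, at 3.17 ± 2.92, were lowest. Nr1d2 was above Clock in 12 of 12 libraries with no overlap of their ranges. Every other pair of neighbours in this order overlapped, although Nr1d1 was above Tef, and Tef above Per3, in 11 of 12.

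Arntl, the activator of the loop, had the largest SD within groups among the 10 genes on the log2 scale used here. Its normalized count was 84.1, 183 and 4.05 in WT PC replicates 1, 2 and 3, and 70.3, 85.6 and 8.14 in WT VM replicates 1, 2 and 3. In the KO PCs it was 45.7, 61.9 and 25.4, and in the KO VMs 22.6, 71.9 and 32.4. Replicate 3 of the WT was thus very low in both cell types, with 7 and 11 reads, and the 2 values lay below those of the other 10 libraries, of which the lowest was 22.6. The KO libraries lay between the extremes of the WT, and the groups overlapped in every comparison. The SD of Arntl within groups was 1.64 on a log2 scale (normalized count + 2, used for all log2 values per library), larger than that of 99.7% of 2285 genes of like level, whose median was 0.48. Adding 2 narrows the spread of genes with a count of 0 in a library, such as Per2 (1.55) and Dbp (1.39). The first rank of Arntl therefore depends on the 2 added.

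Clock, a partner of ARNTL, had normalized counts of 713, 566 and 322 in the WT PCs and 734, 696 and 423 in the WT VMs. In the KO it had 362, 651 and 550 in the PCs and 468, 615 and 467 in the VMs. Replicate 3 was again the lowest of the WT in both cell types, at 0.50 and 0.59 times the mean of the other 2 libraries. Npas2, the alternative partner, was scarce, with 9.59, 17.6 and 8.09 in the WT PCs and 14.1, 30.1 and 9.61 in the WT VMs. It had 15.8, 26.5 and 10.0 in the KO PCs and 11.3, 20.5 and 19.7 in the KO VMs, that is 8 to 32 reads per library. Replicate 2 held the highest Npas2 in each of the 4 groups, as it did the highest Arntl. Its SD within groups, 0.59, was not large for its level, with 26.7% of genes of like level varying less.

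The Per genes, which encode the repressors of the loop, were each highest in the WT in the library of each cell type where Arntl was lowest. Per1 had normalized counts of 20.5, 9.75 and 56.6 in the WT PCs and 13.1, 17.9 and 50.3 in the WT VMs. In the KO PCs it had 51.0, 16.4 and 20.0 and in the KO VMs 65.1, 14.1 and 30.1, so that in the KO replicate 1 was the highest, not replicate 3. Per2 had 14.8, 0 and 63.6 in the WT PCs and 16.9, 2.82 and 30.3 in the WT VMs. In the KO PCs it had 10.5, 12.6 and 31.4 and in the KO VMs 17.0, 16.7 and 5.79. The 0 of WT PC replicate 2 allows up to 3 counts, or 5.85 normalized counts in that library. Per3 had 44.0, 54.6 and 168 in the WT PCs, 82.6, 30.3 and 178 in the KO PCs, 53.5, 26.4 and 118 in the WT VMs and 50.9, 42.4 and 74.1 in the KO VMs. Replicate 3 had the highest Per3 in each of the 4 groups. Relative to the other 2 libraries of its group, WT PC replicate 3 held 3.42 times the Per1, 6.97 times the Per2 and 3.32 times the Per3. WT VM replicate 3 held 2.99, 2.73 and 2.85 times. The SD of Per2 within groups, 1.55 log2 units, was larger than that of 99.1% of genes of like level, that of Per3 larger than that of 95.3% and that of Per1 larger than that of 86.9%.

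Nr1d1 and Nr1d2, the nuclear receptors that repress Arntl, had SDs within groups of 0.49 and 0.41 log2 units. Nr1d1 had normalized counts of 86.7, 35.1 and 90.1 in the WT PCs and 137, 109 and 146 in the KO PCs. In the VMs it had 78.8, 96.9 and 97.6 in the WT and 146, 73.2 and 71.8 in the KO. Replicate 3 of the WT was the highest by only 90.1 to 86.7 in the PCs and 97.6 to 96.9 in the VMs. Each KO PC library was above each WT PC library, as was so in 1 direction or the other for 9.58% of all genes, while the VM groups overlapped. Exons of Nr1d1 share 263 bases with Thra on the opposite strand (58 to 287 counts), and whether reads were counted by strand is not stated, so their reads cannot be fully told apart. Nr1d2 had 377, 439 and 726 in the WT PCs, 367, 437 and 508 in the KO PCs, 369, 440 and 788 in the WT VMs and 468, 469 and 610 in the KO VMs. It was highest in replicate 3 and lowest in replicate 1 in each of the 4 groups. The 2 libraries of WT replicate 3 were the highest of all 12.

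Dbp and Tef encode PAR bZIP factors that carry the rhythm to target genes with D-boxes. Dbp had normalized counts of 9.59, 0 and 48.0 in the WT PCs and 6.56, 8.47 and 29.6 in the WT VMs. It had 12.3, 5.05 and 31.4 in the KO PCs and 17.0, 15.4 and 23.2 in the KO VMs. Replicate 3 had the highest Dbp in each of the 4 groups, at 7.35 times the mean of the other 2 libraries in the WT PCs, 3.32 times in the WT VMs, 3.13 times in the KO PCs and 1.38 times in the KO VMs. The SD of Dbp within groups, 1.39 log2 units, was larger than that of 98.0% of genes of like level. Its values rest on 0 to 83 reads per library, and 539 exon bases are shared with Sphk2 on the opposite strand, which had 2 to 33 counts. Tef had 106, 396 and 222 in the WT PCs, 146, 84.6 and 111 in the KO PCs, 92.8, 58.4 and 195 in the WT VMs and 144, 97.6 and 109 in the KO VMs. The highest Tef was in WT PC replicate 2, the library with most unaligned reads, where Dbp was at 0, so the 2 output factors did not go together in the PCs.

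**Figure D1:**
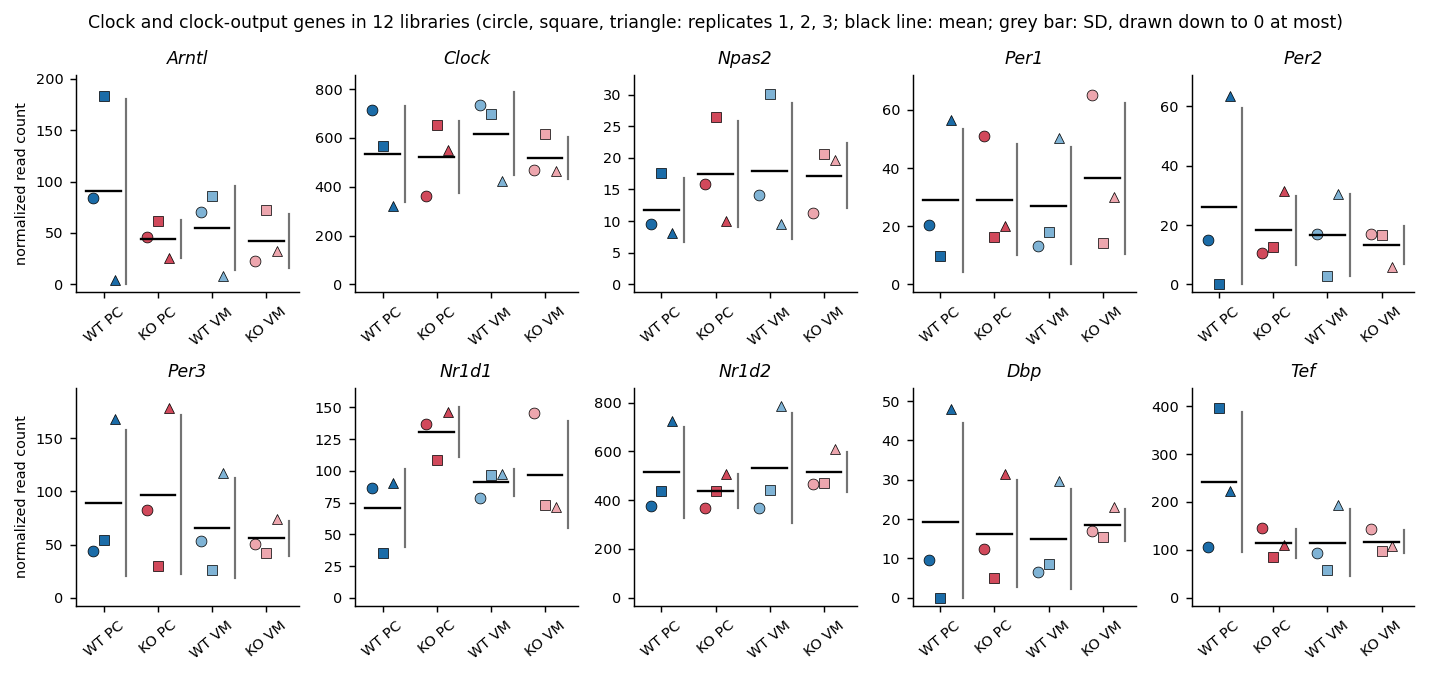
Normalized read count (vertical axes, from 0) of each of the 10 genes in the 12 libraries, by group; circles, squares and triangles are replicates 1, 2 and 3, the black line is the mean and the grey bar the SD (n = 3). Triangles of the WT lie lowest for Arntl, Clock and Npas2 and highest for Per1, Per2, Per3, Nr1d1, Nr1d2 and Dbp.

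Taken by library, WT PC replicate 3 had the highest value of its group for 6 of the 10 genes, Per1, Per2, Per3, Nr1d1, Nr1d2 and Dbp, and the lowest for Arntl, Clock and Npas2. WT VM replicate 3 had the highest value for the same 6 genes and Tef, 7 in all, and the lowest for Arntl, Clock and Npas2. In the KO PCs replicate 3 was highest for 5 genes, Per2, Per3, Nr1d1, Nr1d2 and Dbp, and lowest for Arntl and Npas2. In the KO VMs replicate 3 was highest for 3 genes, Per3, Nr1d2 and Dbp, and lowest for Clock, Per2 and Nr1d1. Replicate 2 was highest for Arntl and Npas2 in each of the 4 groups and lowest for Dbp, Per1, Per3 and Tef in 3 of 4 each. How many of all genes were highest or lowest in each library was not counted. WT PC replicate 3 had the most genes with a count, 18129, and WT PC replicate 2 the fewest, 11847.

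The replicate numbers thus carried over between cell types for these genes, more closely in the WT than in the KO. Over the 10 genes, deviations from the group mean of WT PC and WT VM libraries of the same number had a correlation of 0.52, 0.68 and 0.93 for replicates 1, 2 and 3. Pairs of different numbers ran from -0.82 to 0.46. In the KO the same-number values were 0.45, 0.65 and 0.10, and replicate 3 of the KO PCs was slightly closer to replicate 1 of the KO VMs, at 0.15. Between genotypes, the same-number values were -0.35, 0.61 and 0.76 for KO PC with WT PC, and -0.46, 0.39 and 0.09 for KO VM with WT VM. KO VM replicate 2 was closest to WT VM replicate 1, at 0.84. Since deviations within a group cancel out, values of different numbers partly follow from those of the same number. Several of the 10 genes varied more than most genes of like level, so values over all genes are not on a like footing. Over 8100 genes the same-number correlations were smaller, 0.21, 0.08 and 0.15 in the WT and -0.01, 0.12 and 0.02 in the KO. Pairs of different numbers there ran from -0.17 to 0.02 in the WT and from -0.13 to 0.09 in the KO. In the WT each same-number value was thus above each different-number value over all genes as well. These are descriptions across genes, which are not independent replicates, and the source names call the WT libraries 1, 3 and 4 in both cell types.

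The balance of Arntl and Dbp in each library was expressed as the share of Arntl in the summed counts of Arntl and Dbp, with exact (Clopper-Pearson) 95% intervals that cover counting error only. In the WT PCs the share was 89.8% (84.9 to 93.5) in replicate 1, 100% (96.2 to 100; 94 of 94 reads) in replicate 2 and 7.78% (3.18 to 15.4) in replicate 3. In the WT VMs it was 91.5% (83.2 to 96.5), 91.0% (83.6 to 95.8) and 21.6% (11.3 to 35.3). The intervals of replicate 3 were well apart from those of the other 2 libraries in both cell types. In the KO PCs the share was 78.8% (61.1 to 91.0), 92.5% (81.8 to 97.9) and 44.7% (33.9 to 55.9), again with the lowest value in replicate 3. In the KO VMs it was 57.1% (37.2 to 75.5), 82.4% (71.2 to 90.5) and 58.3% (43.2 to 72.4), where the intervals of replicates 1 and 3 overlapped. Each WT group thus held libraries on either side of an even share of counts. So did the KO PCs, where the interval of replicate 3 included an even share. The share takes no account of exon length (7523 bases for Arntl, 2993 for Dbp), so an even share is not an equal level. The WT groups ran from 7.78% to 100% in the PCs and from 21.6% to 91.5% in the VMs. The KO groups ran from 44.7% to 92.5% and from 57.1% to 82.4%. With 3 libraries a group this difference in range was not tested.

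**Figure D2:**
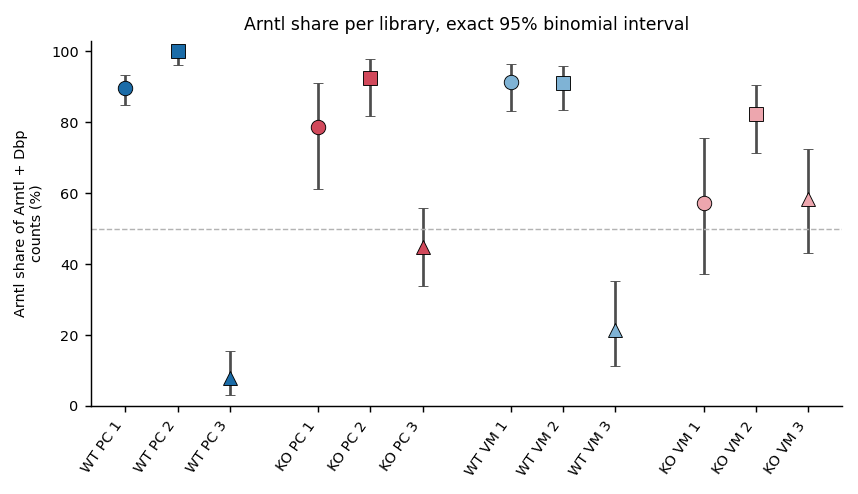
Share of Arntl in the counts of Arntl and Dbp (vertical axis, percent) in each library, with the exact 95% binomial interval as bars. The dashed line is an even share of counts, not corrected for exon length. WT replicate 3 lies at 7.78% in the PCs and 21.6% in the VMs, and the other WT libraries at 89.8% or above.

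Arntl and Dbp ran in opposite directions over the libraries. Pearson's r of their log2 values was -0.87 over the 12 libraries (Spearman's rho -0.83), -0.91 over the 6 PC libraries and -0.83 over the 6 VM libraries. Without the 2 libraries farthest from the median of Arntl, WT PC replicate 3 and WT VM replicate 3, r was -0.86 over 10. These values are descriptions, since the libraries share cell types, genotypes and possibly hearts, and both genes share 1 depth per library.

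Arntl went with its partners, with an r of 0.75 for Clock and 0.63 for Npas2 over the 12 libraries. It went against Per1 (-0.80), Nr1d2 (-0.80), Per2 (-0.79) and Per3 (-0.74), and less against Nr1d1 (-0.47) and Tef (-0.21). Without WT PC replicate 3 and WT VM replicate 3 most of these values were weaker, 0.51 for Clock and 0.36 for Npas2. They were then -0.74 for Per1, -0.44 for Nr1d2, -0.67 for Per2 and -0.53 for Per3. That of Nr1d1 became stronger, at -0.79, and that of Tef turned to 0.30. Of the 14 pairs of Arntl or Npas2 with a Per, Nr1d, Dbp or Tef gene, 14 had a negative r, as had the 7 pairs of Clock. Of the 21 pairs among the 7 Per, Nr1d, Dbp and Tef genes, 17 had a positive r, with a median of 0.49. Nr1d1 and Nr1d2 had an r of -0.0044. The other negative values were those of Tef with Per2 (-0.080), Nr1d1 (-0.45) and Dbp (-0.15). Tef also differed between cell types. Its r with Arntl was 0.09 in the PC libraries and -0.93 in the VM libraries, and WT PC replicate 2 is the PC library with both the highest Arntl and the highest Tef.

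**Figure D3:**
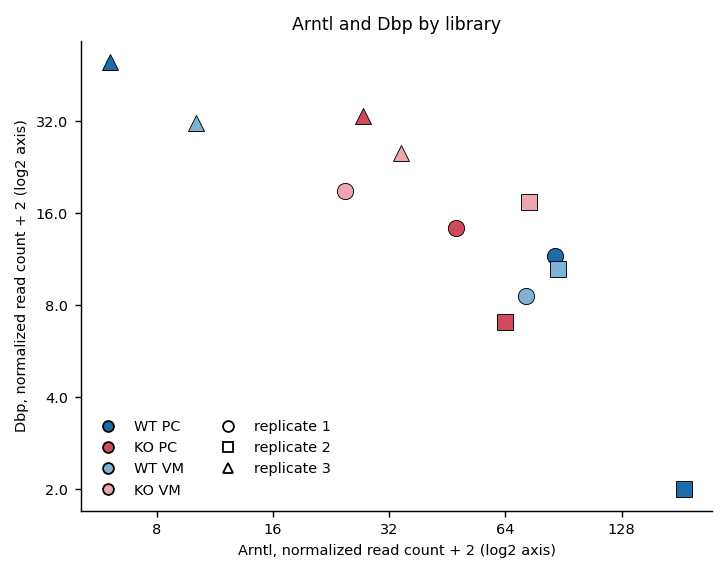
Dbp against Arntl, both as normalized read count + 2 on log2 axes, 1 point a library, coloured by group and shaped by replicate number. The triangles of WT PC and WT VM lie at upper left, with low Arntl and high Dbp, and WT PC replicate 2 at lower right, with Arntl at 183 and Dbp at 0.

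Genes of stress and hormone response moved with the same libraries. The summed normalized count of 10 immediate early genes (such as Fos, Jun, Egr1 and Nr4a1, which many signals induce within minutes) was lowest in replicate 2 and highest in replicate 3 in each of the 4 groups. It was 2828, 1717 and 3866 in the WT PCs, 3131, 1865 and 3272 in the KO PCs, 2171, 1520 and 3666 in the WT VMs and 2256, 1642 and 2850 in the KO VMs. Its log2 value had an r of -0.78 with Arntl, 0.71 with Dbp and 0.86 with Per3 over the 12 libraries, but only 0.39 with Nr1d1 and 0.32 with Tef. The sum of 8 genes that glucocorticoids induce, of which Dusp1 is in both lists, was highest in replicate 2 in each of the 4 groups. It was 4345, 4951 and 3274 in the WT PCs, 2856, 4121 and 3180 in the KO PCs, 3898, 6375 and 3742 in the WT VMs and 2659, 4411 and 3200 in the KO VMs. Its r was 0.60 with Arntl and -0.71 with Per1, a gene that glucocorticoids are known to induce. With Nr1d2 and Tef it was weaker, at -0.22 and -0.23. The part of these responses in the levels of the clock genes was not tested.

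Of 5647 genes with a mean normalized count above 50, those most like Arntl over the 12 libraries were Hfe2, which encodes the BMP co-receptor hemojuvelin (r = 0.92), Leo1, of the PAF1 complex (0.88), and Vmp1, an autophagy factor (0.87). The most opposed were Nr4a1, an immediate early nuclear receptor (-0.91), and Cpeb2 (-0.88). Usp2, a deubiquitinase under clock control, was the eighth most opposed (-0.83), and Nr1d2 the fifteenth. The genes most like Dbp were Arhgap21 (0.90), the cold-induced RNA-binding protein gene Rbm3 (0.90) and Nhsl1 (0.89), and those most opposed to it were Aars (-0.90), Serpinh1 (-0.89) and Cltc (-0.89). Arntl was the seventh most opposed to Dbp of 5648 genes. With 12 libraries and so many genes such values arise widely, and they are given as a description.

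Among 20 other clock genes, 12 had their highest WT PC value in replicate 3 and 14 their highest WT VM value there. The share of all genes highest in these libraries was not counted, so a pattern of clock genes is not told apart from one of whole libraries. Those whose 2 WT replicate 3 libraries lay above the other 10 are named here after their values were seen. Their values were the reason for naming them and so are no test, and the share of all genes that lie this way was not counted. Ciart, a repressor of the ARNTL pair, had 0.872, 0 and 39.3 normalized counts in the WT PCs and 6.56, 0.941 and 49.6 in the WT VMs, against 2.53 to 15.6 in the KO libraries. Hlf, the third PAR bZIP factor, had 195, 185 and 579 in the WT PCs and 118, 77.2 and 285 in the WT VMs. Bhlhe41, a repressor that competes for E-boxes, had 99.4, 121 and 151, and 55.3, 62.1 and 300. Cry2, a partner of the PER proteins, had 27.03, 37.1 and 53.2, and 25.3, 31.1 and 54.7, and Wee1, a cell cycle kinase under E-box control, 29.6, 11.7 and 65.9, and 58.1, 34.8 and 79.9. Nfil3, which represses D-box genes, ran the other way, with 46.6, 115 and 19.6 in the WT PCs and 60.0, 30.1 and 20.0 in the WT VMs. Cry1 was also lowest in replicate 3 of both, at 26.6 and 28.1.

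**Figure D4:**
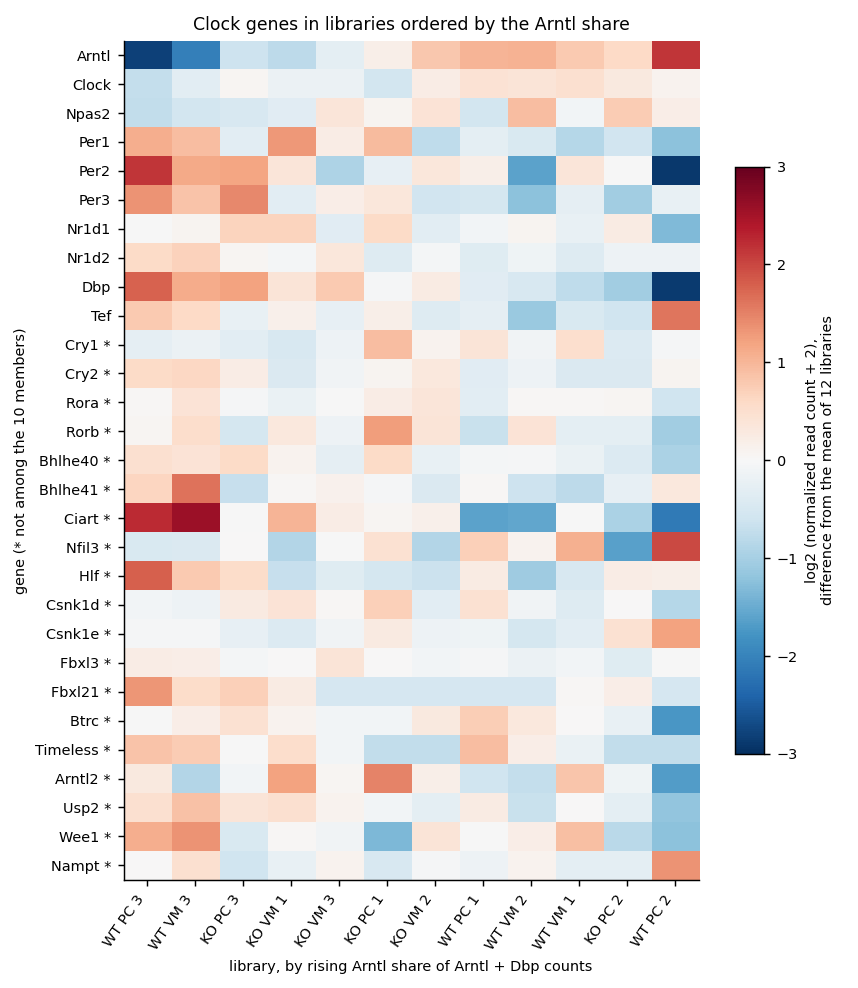
Log2 (normalized read count + 2) of the 10 genes and of 19 other clock genes (asterisks), as the difference from each gene's mean over 12 libraries, with libraries ordered by the Arntl share of Arntl and Dbp counts. The order is set by Arntl and Dbp themselves; Ciart is highest (red) at the left, in WT PC replicate 3 and WT VM replicate 3. Per2 is high there and in KO PC replicate 3, and low in KO VM replicate 3.

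Purkinje cells were compared with ventricular myocytes within each genotype. In the WT, none of the 10 genes differed between PCs and VMs at an adjusted p under 0.05 in the quasi-likelihood test of edgeR, adjusted after Benjamini and Hochberg, where 0.11% of the 11822 genes tested did. At an unadjusted p under 0.05 the count was also 0, against 6.36% of all genes. Tef had the smallest p, with a log2 fold change of 1.0 ± 0.54 (PC over VM, standard error, n = 3 and 3; adjusted p = 0.81 in edgeR's test). That of Arntl was 0.65 ± 1.07 and that of Dbp 0.40 ± 1.09. The standard errors ran from 0.33 for Clock to 1.13 for Per2. Differences of 1 log2 unit in Arntl, Per2 or Dbp were thus not detectable in this fit, which took no pairing. With the replicate number as a block, Arntl had 0.25 ± 0.49, Per2 0.10 ± 0.81 and Dbp -0.11 ± 0.90. The median log2 fold change was 0.25 over the 10 genes and near 0 over all genes.

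In the KO, none of the 10 genes differed between PCs and VMs at an adjusted p under 0.05 in edgeR's test, against 0.872% of 10779 genes, nor at an unadjusted p under 0.05, against 9.7%. Per3 had a log2 fold change of 0.84 ± 0.45 (edgeR adjusted p = 0.60) and Nr1d1 of 0.44 ± 0.28 (edgeR adjusted p = 0.67). The standard errors were smaller than in the WT, 0.17 for Nr1d2 to 0.60 for Per2, and the difference for Arntl was 0.03 ± 0.44. The PC and VM values overlapped for each of the 10 genes in both genotypes, where 14.1% of all genes in the WT and 15.6% in the KO did not overlap.

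Ncam-1 KO cells were compared with WT cells to ask whether loss of the adhesion molecule altered the clock genes. In the PCs, none of the 10 genes and 0% of 11754 genes passed an adjusted p of 0.05 in edgeR's test. At an unadjusted p under 0.05 Tef was called, against 3.22% of all genes, and it had a log2 fold change of -1.07 ± 0.44, an edgeR p of 0.0368 and an adjusted edgeR p of 0.99. This call rested on single libraries. Without WT PC replicate 2 the log2 fold change was -0.55 with an edgeR p of 0.11, and without KO PC replicate 2, KO PC replicate 3 or WT PC replicate 3 the edgeR p was 0.13, 0.084 and 0.062. Nr1d1 was the 1 gene whose groups did not overlap, against 9.58% of all genes, with means of 131 ± 19.7 in the KO and 70.7 ± 30.8 in the WT (SD, n = 3) and a log2 fold change of 0.85 ± 0.41 (adjusted p = 0.99 in edgeR's test). Arntl had -0.996 ± 0.93 and Dbp -0.26 ± 1.12.

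In the VMs, none of the 10 genes passed an adjusted p of 0.05 in edgeR's test, against 0.0373% of 10737 genes, and none an unadjusted p of 0.05, against 5.12%. The values of KO and WT overlapped for each of the 10, against 9.64% of all genes without overlap. The log2 fold changes ran from -0.40 ± 0.63 for Per2 to 0.36 ± 0.51 for Per1, and Arntl had -0.34 ± 0.55. This count hung on WT VM replicate 3. Without it 5 of the 10 genes had an unadjusted p under 0.05, against 4.78% of the 10602 genes then tested, Arntl (-0.87), Clock (-0.46), Per1 (1.22), Dbp (1.29) and Tef (0.63), each with an adjusted p of 0.97 or above in edgeR's test. Without WT PC replicate 3, where 5.84% of all genes had an unadjusted p under 0.05, Arntl was the 1 member called and had a log2 fold change of -1.58 in the PCs, an edgeR p of 0.0175 and an adjusted edgeR p of 0.80. WT VM replicate 3 held the lowest Arntl and Clock and the highest Per1, Dbp and Tef of its group. Leaving it out therefore shifts the WT means of these genes and narrows their WT spread by construction. The same holds for Arntl when WT PC replicate 3, the lowest of its group, is left out. These counts are thus no test of genotype.

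**Figure D5:**
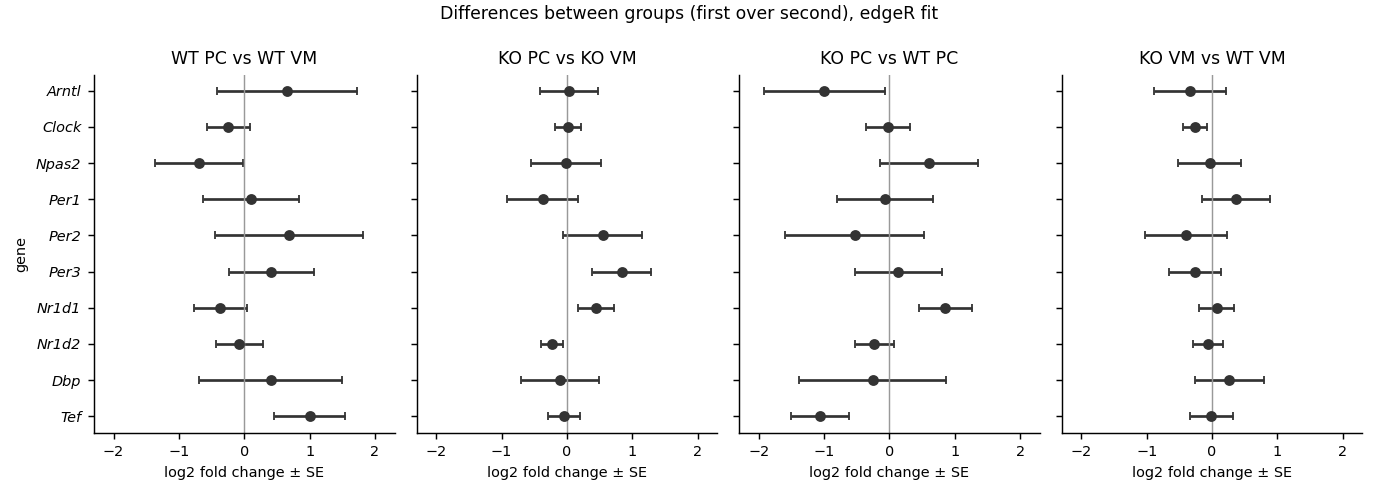
Log2 fold change (horizontal axes, point) with its standard error (bar) of each gene in the 4 comparisons, the first group named over the second, from edgeR fits of 3 against 3 libraries. The bars are longest for Arntl, Per2 and Dbp in comparisons with WT PC, where Arntl ran from 4.05 to 183 normalized counts.

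The genotype effect was not found to differ between cell types. In the interaction over all 12 libraries none of the 10 genes passed an adjusted p of 0.05 in edgeR's test, against 0% of 11323 genes, and none an unadjusted p of 0.05, against 2.9%. Tef had the largest estimate, -1.08 ± 0.64 (effect in PCs minus effect in VMs, edgeR adjusted p = 0.999), and Nr1d1 had 0.76 ± 0.50. Since no label says that libraries of a group came from separate animals, these p-values measure the spread between these libraries.

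For the 20 other clock genes, 17 or 18 of which were tested, no adjusted p was under 0.05 in any comparison. At an unadjusted p under 0.05 there were 0 in WT PC over WT VM (6.36% of all genes), with Rora (-0.46 ± 0.26), Hlf (0.98 ± 0.58) and Csnk1e (0.72 ± 0.45) at the smallest p. In KO PC over KO VM, where 9.7% of all genes were called, there were 3, Hlf (0.72 ± 0.25), Nampt, the NAD salvage enzyme (-0.40 ± 0.14), and Wee1 (-0.97 ± 0.44). In KO PC over WT PC (3.22% of all genes) there was 1, Nampt (-1.01 ± 0.37), followed by Bhlhe41 (-0.69 ± 0.35) and Hlf (-0.81 ± 0.47). In KO VM over WT VM (5.12% of all genes) there were 2, Wee1 (-0.83 ± 0.32) and Nfil3 (-0.94 ± 0.43). The interaction (2.9% of all genes) had 0, with Nampt (-0.84 ± 0.45), Rora (0.44 ± 0.31) and Bhlhe40 (0.57 ± 0.48) at the smallest p. Nampt in the WT PCs was 1006, 2832 and 1126, again highest in replicate 2. The list's median log2 fold change lay between -0.17 and 0.02 in the 5 comparisons, against -0.02 to 0.01 over all genes.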

How the data were processed

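RNA of sorted cells was sequenced in 12 libraries, 3 in each of 4 groups of genotype and cell type. The deposited values are unnormalized counts of read pairs on each gene, which the authors made with STAR on mm10 and HTSeq; whether strand was used is not given in the sources used here. HTSeq's classes that name no gene held 40.0% to 73.6% of the pairs and were left out of library sizes and tests. Groups and replicate numbers came from the sample titles. The 10 genes and the lists were chosen with earlier results of these data known.

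Counts were scaled by TMM to the geometric mean of the effective library sizes. Each comparison took its 6 libraries (the interaction all 12), genes with a mean normalized count above 5, and the quasi-likelihood test of edgeR 4.0.16 in R 4.3.3, with p-values adjusted by Benjamini-Hochberg across every gene tested and standard errors from the F statistic. The script was tested on simulated data. All 10 genes passed the filter in every comparison. Genes of like level lie within 1.5-fold of a gene's mean. Alternatives were DESeq2 1.42.0, its size factors, filterByExpr, no filter, limma 3.58.1 voom with quality weights, no mitochondrial genes, a replicate block, 1 fit of 12 libraries, and each library left out. Other genes were named by a rule: the 3 smallest p of the other clock genes when none passed adjustment, and the 3 genes most like and most opposed to Arntl and Dbp; 2 genes that the rule names are not reported here. Depth limits the scarce genes, and a count of 0 allows up to 3 counts. Gene positions came from GENCODE M21 (GRCm38), and 85 of 85 listed symbols were found.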

Additional observations from a re-analysis of the deposited data

How the results depend on the processing

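No member passed an adjusted p of 0.05 in any comparison, under any alternative or with any library left out, and the values below are of members that were not called. At an unadjusted p under 0.05 the count of members became 1 in WT PC over WT VM (Tef) without a filter (7.18% of all genes) and with all 12 libraries in 1 fit (11.2%), 1 in KO PC over KO VM without a filter (Per3; 7.89%) and by voom (Nr1d1; 9.84%), and 1 in the interaction (Tef) without a filter (4.29%). In KO PC over WT PC it became 2, Tef and Nr1d1, by DESeq2 (4.78% of all genes), without a filter (5.21%) and with 12 libraries in 1 fit (8.65%), against 3.22% in the fit reported, and stayed at 1 under the replicate block (2.37%), where the p of Tef was 0.083 and Nr1d1 was the gene past 0.05. In both KO over WT comparisons the block joined libraries by replicate number alone, although KO and WT are different mice that no label pairs. The r of Arntl and Dbp was -0.80 with 0.5 in place of 2 added to the counts, and ran from -0.90 to -0.84 with each library left out.

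The sign of the log2 fold change turned in 28 member results with every library kept; the causes were not tested. By voom with quality weights, the values were Arntl -1.13 and Nr1d2 0.12 in WT PC over WT VM, Arntl 1.42, Clock 0.24 and Per3 -0.41 in KO PC over WT PC, Arntl 0.084, Npas2 0.15, Per3 0.13, Nr1d1 -0.17, Nr1d2 0.083 and Tef 0.15 in KO VM over WT VM and Arntl 1.44 and Per3 -0.60 in the interaction. With the replicate block, the values were Dbp -0.11 in WT PC over WT VM, Clock -0.0040 in KO PC over KO VM, Clock 0.011, Per1 0.15, Per2 0.11 and Dbp 0.35 in KO PC over WT PC, Npas2 0.035, Nr1d2 0.0070 and Tef 0.13 in KO VM over WT VM and Per2 0.26 in the interaction. By DESeq2, the value was Tef 0.025 in KO VM over WT VM. With DESeq2 size factors, the value was Tef 0.014 in KO VM over WT VM. Without mitochondrial genes, the values were Clock -0.0010 in KO PC over KO VM and Tef 0.0011 in KO VM over WT VM. With 12 libraries in 1 fit, the value was Tef 0.011 in KO VM over WT VM. With each library left out in turn, the count of members at an unadjusted p under 0.05 ran from 0 to 5 in KO VM over WT VM and from 0 to 1 in the other 4 comparisons. In WT PC over WT VM the log2 fold changes whose sign then turned in 1 or more fits spanned Arntl -0.28 to 1.25, Clock -0.51 to 0.032, Per1 -0.81 to 0.92, Per2 -0.97 to 1.45, Per3 -0.46 to 1.15, Nr1d2 -0.42 to 0.33, Dbp -1.38 to 1.39. In KO PC over KO VM the log2 fold changes whose sign then turned in 1 or more fits spanned Arntl -0.31 to 0.65, Clock -0.17 to 0.21, Npas2 -0.46 to 0.31, Per1 -0.96 to 0.32, Per2 -0.15 to 0.80, Per3 -0.035 to 1.25, Dbp -1.14 to 0.31, Tef -0.24 to 0.12. In KO PC over WT PC the log2 fold changes whose sign then turned in 1 or more fits spanned Clock -0.29 to 0.23, Per1 -0.68 to 0.86, Per2 -1.24 to 1.13, Per3 -0.72 to 1.01, Nr1d2 -0.43 to 0.11, Dbp -1.25 to 1.54. In KO VM over WT VM the log2 fold changes whose sign then turned in 1 or more fits spanned Arntl -0.93 to 0.17, Npas2 -0.35 to 0.57, Per1 -0.33 to 1.22, Per2 -0.86 to 0.40, Per3 -0.61 to 0.49, Nr1d1 -0.34 to 0.26, Nr1d2 -0.27 to 0.36, Dbp -0.085 to 1.29, Tef -0.30 to 0.63. In the interaction the log2 fold changes whose sign then turned in 1 or more fits spanned Arntl -1.23 to 0.30, Clock -0.038 to 0.52, Per1 -1.30 to 0.40, Per2 -0.94 to 1.42, Per3 -0.47 to 1.26, Nr1d2 -0.58 to 0.15, Dbp -1.57 to 1.16. The replicate numbers were not taken as pairing. The correlation over 8100 genes between libraries of the same number was at or under 0.1 for 1 of 3 WT pairs and 2 of 3 KO pairs of PCs and VMs. In the WT, however, the same-number values (0.08 to 0.21) all lay above those of different numbers (-0.17 to 0.02). In the KO they ran from -0.01 to 0.12 against -0.13 to 0.09. The cut at 0.1 was a choice, and pairing by heart was not tested. The block took the genes at an adjusted p under 0.05 from 13 to 4 in WT PC over WT VM and from 94 to 121 in KO PC over KO VM; no member was among the adjusted calls of either fit. Depth limits Arntl, Npas2, Per1, Per2 and Dbp, each with fewer than 10 reads in at least 1 library.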
